A study of Mus musculus with 12 samples.

Results

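The genes described here are the 10 that carry the steps of haem and iron handling in a cell: the haem importer Slc48a1, the haem-degrading enzyme Hmox1, the ferritin subunits Fth1 and Ftl1, the iron exporter Slc40a1, its partner Cp, its regulator Hamp, and the uptake genes Tfrc, Trf and Slc11a2. They were chosen by name, through the Ensembl identifiers of a table that lists 55357 genes, and all 10 were found in it. Polyadenylated RNA was sequenced in 12 libraries of mouse heart tissue, in 4 groups of 3, wild-type C57BL/6J mice (WT) or Cd163-/- mice on the same background (KO), with either genotype given sham surgery or a constriction of the transverse aorta (TAC). All animals were male and 8 weeks old at surgery. TAC ties the aortic arch over a 27-gauge needle and so loads the left ventricle with pressure, and sham surgery left out the tie. The labels give neither the time from surgery to sampling nor the part of the heart taken. By its label the Cd163 deletion is not tied to one cell type, and the part of the gene that was removed is not given. The replicates are numbered 1, 2 and 3 after sham and 1, 3 and 5 after TAC.

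Cd163 is the macrophage receptor that takes up haemoglobin bound to haptoglobin, so it stands at the entry of haem iron into macrophages. Haem is released inside the lysosome, leaves it through Slc48a1 and is opened by Hmox1, which frees the iron. Free iron is stored in ferritin or exported by ferroportin, the product of Slc40a1, and hepcidin, the peptide made from Hamp, makes cells withdraw ferroportin from their surface. Heart muscle cells take up most of their iron as transferrin through the transferrin receptor, and they depend on it for haem and iron-sulphur proteins of the respiratory chain. Iron regulatory proteins bind a hairpin called the iron-responsive element when a cell is short of iron. Bound near the start of a transcript they block its translation, and bound behind the coding part they protect the transcript from decay, so ferritin and ferroportin can change as protein with no change of the RNA measured here.

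The hairpins are shown because they are the known site of iron's control over several of these transcripts. A search of mouse transcripts of GENCODE release M21 for a C, 5 bases, the letters CAGTG, any base and 5 further bases able to pair with the first 5 (G with T allowed, sense strand only) found the element in 4 of the 10 genes, Slc40a1, Fth1, Ftl1 and Tfrc, against 1.34% of 21877 protein-coding genes. The genes were chosen by name and carry hairpins already known, so the 4 matches were foreseen and are no result. Each line gives 30 bases of the first listed transcript, 5′ to 3′, with the loop in capitals. The search is strict, and Slc11a2, which is known to have a transcript form with such an element behind the coding part, gave no match, which says only that these letters and pairs are not in the transcripts searched. Slc40a1, Fth1 and Ftl1 carried 1 element each ahead of the coding part, and Tfrc carried 4 behind it.
Slc40a1, bases 90 to 119: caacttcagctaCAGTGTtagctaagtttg
Fth1, bases 87 to 116: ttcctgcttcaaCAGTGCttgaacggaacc
Ftl1, bases 78 to 107: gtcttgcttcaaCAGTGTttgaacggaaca
Tfrc, bases 3315 to 3344: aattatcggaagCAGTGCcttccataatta
Tfrc, bases 3694 to 3723: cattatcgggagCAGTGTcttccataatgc
Tfrc, bases 3759 to 3788: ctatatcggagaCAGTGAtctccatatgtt
Tfrc, bases 3806 to 3835: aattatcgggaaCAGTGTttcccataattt

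Some facts of the libraries bear on every value below. Total counts ranged from 14150109 to 22602225 per library. Transcripts of the mitochondrial genome took 51.0% of the counts in KO sham replicate 1 and 44.0% to 51.3% in KO TAC, while all WT libraries and the other KO sham libraries had 24.8% to 36.9%. KO sham replicate 1 lay near the KO TAC hearts in Slc40a1, Slc48a1 and Alas1 among others, so results that use it are also given without it. That library was singled out after seeing these values. Where it lay near KO TAC, leaving it out enlarges the difference of TAC from sham in KO by construction and shifts the interaction. Calls of those comparisons without it are descriptions and no independent support. Cd163 itself had 282 to 344 counts in WT sham and 255 to 592 in WT TAC, and 46 to 112 in KO sham and 47 to 59 in KO TAC, lower in every KO library but not at 0. All 7 ventricular muscle markers were present, with summed levels of 42945 to 48427 CPM in WT and 25298 to 39696 CPM in KO libraries. Levels are counts relative to library size, scaled by edgeR's trimmed mean of M-values (CPM). Tests are edgeR's quasi-likelihood test over 15804 genes with Benjamini-Hochberg adjustment, a gene "rose" or "fell" only where the adjusted p was under 0.05, and log2 fold changes carry their SE. In a piece of tissue, fewer cells of a type and less RNA per cell cannot be told apart.

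After TAC, the KO hearts differed from the WT hearts in 5 of the 10 genes. Hamp and Trf rose, and Slc48a1, Slc40a1 and Cp fell. Hmox1 and Fth1 also had every KO TAC library below every WT TAC library and missed the threshold with edgeR. DESeq2 called both, among 7 of the 10 genes, where it called 25% of all genes. Both were also called by limma-voom with sample weights, among 8 of the 10, where it called 48.4% of all genes. Over 10 alternative settings, single left-out libraries aside, Hmox1 was called in 5 and Fth1 in 3. With edgeR 20.4% of all genes tested in this comparison passed, 8.63% higher and 11.7% lower in KO, against which the 5 of 10 is to be read. The median log2 fold change was -0.56 over the 10 genes and -0.02 over all genes tested.

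**Figure D1:**
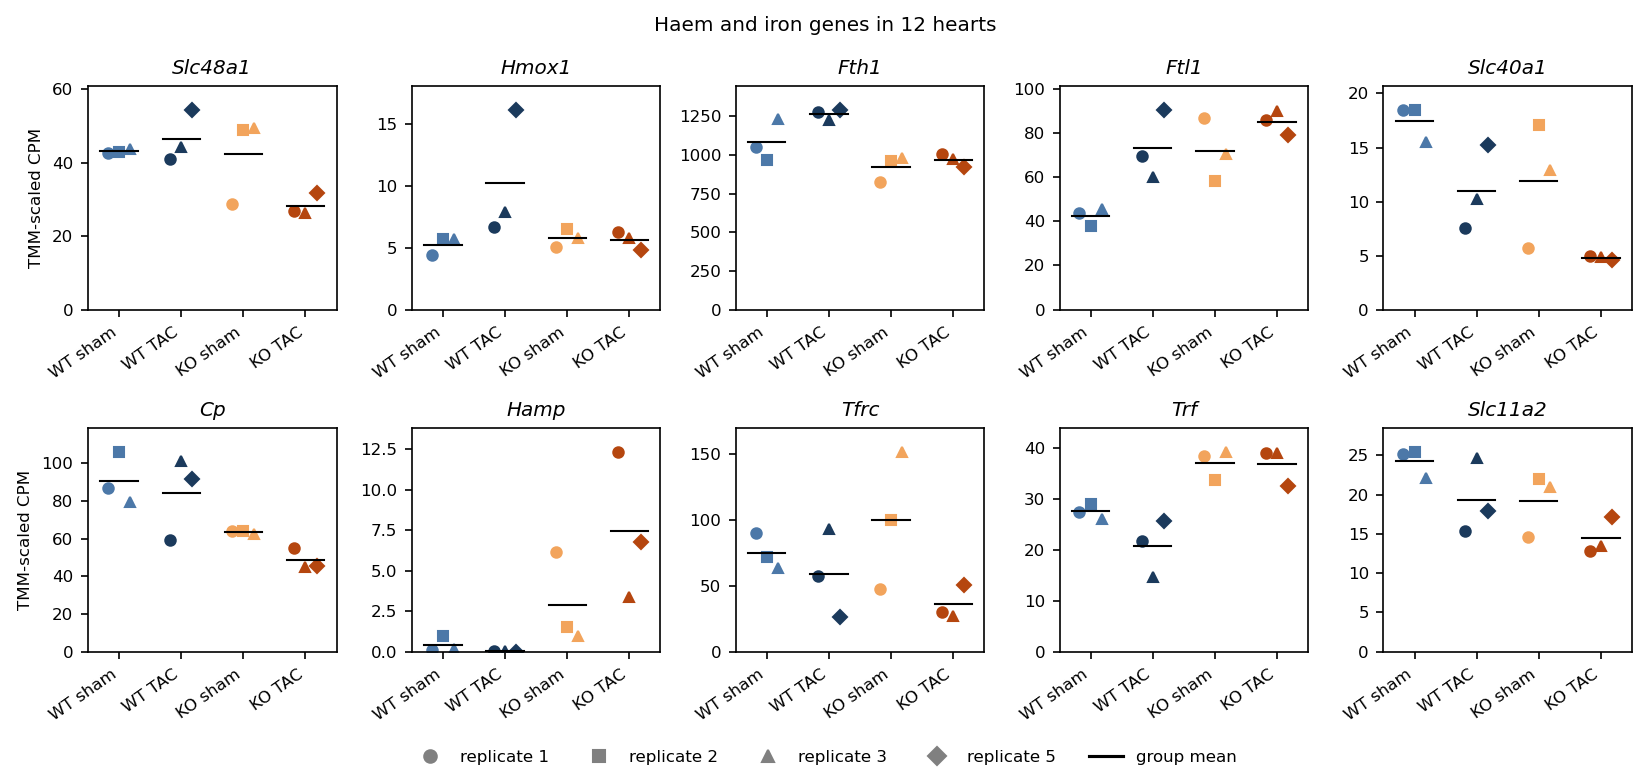
Level of each of the 10 genes in every library, in scaled CPM on a linear axis from 0; points are libraries, shaped by replicate number, and bars are group means. All 6 KO libraries of Trf lie above all 6 WT libraries, and KO sham replicate 1 (circle) lies with the KO TAC libraries for Slc48a1 and Slc40a1.

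With all 12 libraries, edgeR called none of the 10 genes in the other comparisons. Of the 15804 genes tested, 2562 had an edgeR unadjusted p under 0.05 for TAC in WT and 4878 for TAC in KO. The number was 2138 for KO against WT after sham and 1452 for the difference of the TAC effects. The counts of unadjusted p below are to be read against these, and 3 of 10 for TAC in KO lay near the share of all genes. TAC against sham in WT had 0 called and 4 with an unadjusted p under 0.05, DESeq2 called 1 (Ftl1) and limma-voom with sample weights 2 (Ftl1 and Hmox1). The share of all genes called there was 0.0316% with edgeR, 2.93% with DESeq2 and 6.52% with limma-voom. TAC against sham in KO had 0 called and 3 with an unadjusted p under 0.05, DESeq2 called 2 (Slc40a1 and Tfrc) and limma-voom 7, against 0%, 11.5% and 63.2% of all genes. KO against WT after sham had 0 called and 4 with an unadjusted p under 0.05, DESeq2 called 1 (Ftl1) and limma-voom 3 (Cp, Ftl1 and Trf), against 0.00633%, 1.19% and 14.9% of all genes. The difference of the TAC effects between the genotypes (KO less WT, the interaction) had 0 called and 3 with an unadjusted p under 0.05, DESeq2 called 0 and limma-voom 3, against 0%, 0.473% and 32% of all genes.

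Leaving out KO sham replicate 1, a choice made after seeing the data, gave larger counts, for these genes and for all genes. Ftl1 rose with TAC in WT, where 3.4% of all genes rose. In KO, Hamp rose with TAC and Slc48a1, Slc40a1, Tfrc and Slc11a2 fell, where 22.4% of all genes rose and 25.2% fell. In KO against WT after TAC the same 5 genes passed and Hmox1 and Fth1 fell too, where 18.5% of all genes rose and 22.1% fell. In the interaction Hamp was higher and Slc48a1 lower, where 4.66% of all genes were higher and 7.45% lower. In KO against WT after sham none of the 10 passed, where 0.241% of all genes did. The comparisons share groups, so agreement between them is not independent.

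**Figure D2:**
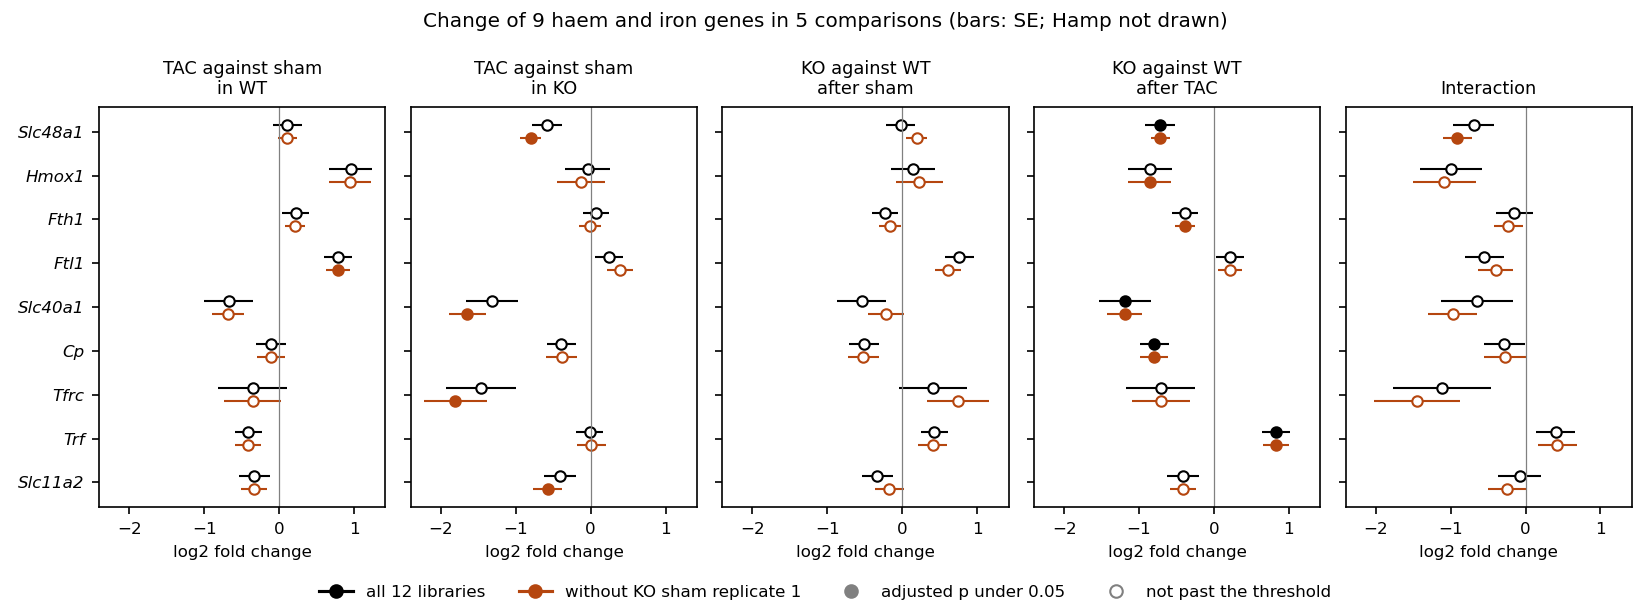
Log2 fold change and SE of 9 of the 10 genes in 5 comparisons, with all 12 libraries (black) and without KO sham replicate 1 (orange); filled points passed at an adjusted p under 0.05. Hamp is not drawn because WT TAC held 2 Hamp counts. Among the 9, the filled black points are Slc48a1, Slc40a1, Cp and Trf in KO against WT after TAC.

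Counted by overlap of the libraries with no test, 5 of the 10 genes had groups that did not overlap for TAC in WT (27.1% of all genes), 2 for TAC in KO (22.4%), 4 for KO against WT after sham (22.5%) and 7 for KO against WT after TAC (46.9%). The count for TAC in KO lay near the share of all genes. Over both surgeries, 1 of the 10 genes, Trf, was higher in all 6 KO libraries than in all 6 WT libraries, where 1.63% of all genes were.

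Slc48a1 (ENSMUSG00000081534) encodes HRG1, which carries haem out of the lysosome. Its levels were 42.7, 42.9 and 43.8 CPM in WT sham replicates 1, 2 and 3 and 41.0, 44.2 and 54.4 CPM in WT TAC replicates 1, 3 and 5. They were 28.8, 49.0 and 49.4 CPM in KO sham replicates 1, 2 and 3 and 26.9, 26.4 and 31.7 CPM in KO TAC replicates 1, 3 and 5. The KO TAC libraries were all below the 6 WT libraries, KO sham replicate 1 lay among them, and the other KO sham libraries lay above the WT sham group. Slc48a1 fell in KO against WT after TAC (log2 fold change -0.72 ± 0.20, 1.64-fold lower, edgeR adjusted p = 0.0325). With single libraries left out, the call was lost for 2 of WT sham (replicates 1 and 2), 2 of WT TAC (3 and 5) and all 3 of KO TAC, with adjusted p from 0.0502 to 0.114 and log2 fold changes from -0.79 to -0.59. It was also lost with scaling by library totals without mitochondrial transcripts (-0.49 ± 0.16, adjusted p = 0.0544). Without KO sham replicate 1, Slc48a1 fell with TAC in KO (log2 fold change -0.80 ± 0.14, adjusted p = 0.000953) and stood at 0.11 ± 0.13 in WT (adjusted p = 0.605). The interaction was -0.69 ± 0.28 with all libraries (adjusted p = 0.513) and -0.91 ± 0.19 without that library (adjusted p = 0.0130).

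Hmox1 (ENSMUSG00000005413), the inducible haem oxygenase, was among the lowest of the 10 genes. Its levels were 4.39, 5.72 and 5.67 CPM in WT sham and 6.64, 7.90 and 16.1 CPM in WT TAC. The KO hearts had 5.05, 6.53 and 5.76 CPM after sham and 6.27, 5.79 and 4.85 CPM after TAC. The WT TAC libraries were the highest 3 of the 12, led by replicate 5, and the other groups overlapped. The log2 fold change for TAC in WT was 0.95 ± 0.29 (edgeR adjusted p = 0.190) and for TAC in KO -0.04 ± 0.30 (adjusted p = 0.932), and the interaction was -0.996 ± 0.417 (adjusted p = 0.530). In KO against WT after TAC it was -0.86 ± 0.30 (adjusted p = 0.0574), and it passed without WT TAC replicate 1 (-1.08, adjusted p = 0.0187) or without KO sham replicate 1 (-0.86, adjusted p = 0.0301). Leaving out WT TAC replicate 5, the library with 16.1 CPM, gave 0.46 for TAC in WT and -0.37 for KO against WT after TAC (adjusted p = 0.321 and 0.247). Summed macrophage markers, a list of 12 genes all detected, ranged from 175 to 259 CPM in WT TAC and from 249 to 262 CPM in KO TAC, and their part in the levels of Slc48a1, Hmox1 and Slc40a1 was not tested.

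Ferritin is a shell of heavy and light subunits, in which the heavy subunit oxidises iron and the light subunit helps to form the mineral core. Fth1 (ENSMUSG00000024661), the heavy subunit, had the highest level of the 10 genes per length of exon, 306 CPM per kb over the 12 libraries, against 50.8 for Ftl1 and 1.25 for Slc40a1. Fth1 stood at 1053, 968 and 1236 CPM in WT sham and at 1276, 1227 and 1291 CPM in WT TAC. It stood at 826, 961 and 979 CPM in KO sham and at 1004, 974 and 922 CPM in KO TAC. The WT TAC libraries did not overlap either KO group and overlapped the WT sham group in replicate 3 of the latter. Fth1 in KO against WT after TAC was -0.39 ± 0.17 on the log2 scale (edgeR adjusted p = 0.117), and without KO sham replicate 1 it fell by 0.39 (SE 0.13, adjusted p = 0.0327). With TAC, WT hearts differed by 0.22 ± 0.17 (adjusted p = 0.525), and KO hearts by 0.07 ± 0.17 (adjusted p = 0.801).

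Ftl1 (ENSMUSG00000050708), the light subunit, followed another order. Its levels were 43.7, 37.7 and 45.6 CPM in WT sham, below all other 9 libraries. They were 69.4, 59.9 and 90.3 CPM in WT TAC, 86.9, 58.4 and 70.4 CPM in KO sham and 85.7, 90.0 and 78.8 CPM in KO TAC, and these 3 groups overlapped. Against WT sham, the log2 fold change was 0.79 ± 0.19 in WT TAC (edgeR adjusted p = 0.125) and 0.76 ± 0.19 in KO sham (adjusted p = 0.230). Without KO sham replicate 1, Ftl1 rose with TAC in WT (0.79 ± 0.16, adjusted p = 0.0199), and KO against WT after sham was 0.61 ± 0.17 (adjusted p = 0.235). After TAC the genotypes stood 0.21 ± 0.19 apart (adjusted p = 0.404). The processed copy Ftl1-ps1 had 15 to 47 counts per library, 1.25% to 3.13% of those of Ftl1. The counting program is not stated, so these counts do not bound the reads shared with that copy.

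The ratio of the 2 subunits within a library needs no scaling between libraries. The log2 ratio of Ftl1 to Fth1 counts was -4.68 ± 0.08 in WT sham, -4.13 ± 0.27 in WT TAC, -3.70 ± 0.41 in KO sham and -3.51 ± 0.07 in KO TAC (SD, n = 3 each). The WT sham libraries, at -4.59, -4.68 and -4.76, were the lowest 3 of the 12, and KO sham replicates 2 and 3 stood at -4.04 and -3.80. Ftl1 relative to Fth1 was lowest in WT sham and did not overlap between TAC and sham in WT, nor between the genotypes after either surgery. The differences were 0.55 for TAC in WT, 0.98 for KO against WT after sham and 0.62 for KO against WT after TAC. Each had an exact permutation p of 0.1, two-sided, the smallest that 3 against 3 allows, and an adjusted p of 0.2 over 8 comparisons. TAC in KO differed by 0.18, with an exact permutation p of 0.5 (adjusted p = 0.8). The RNA ratio says nothing of the subunits as protein, whose translation the hairpins above control.

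**Figure D3:**
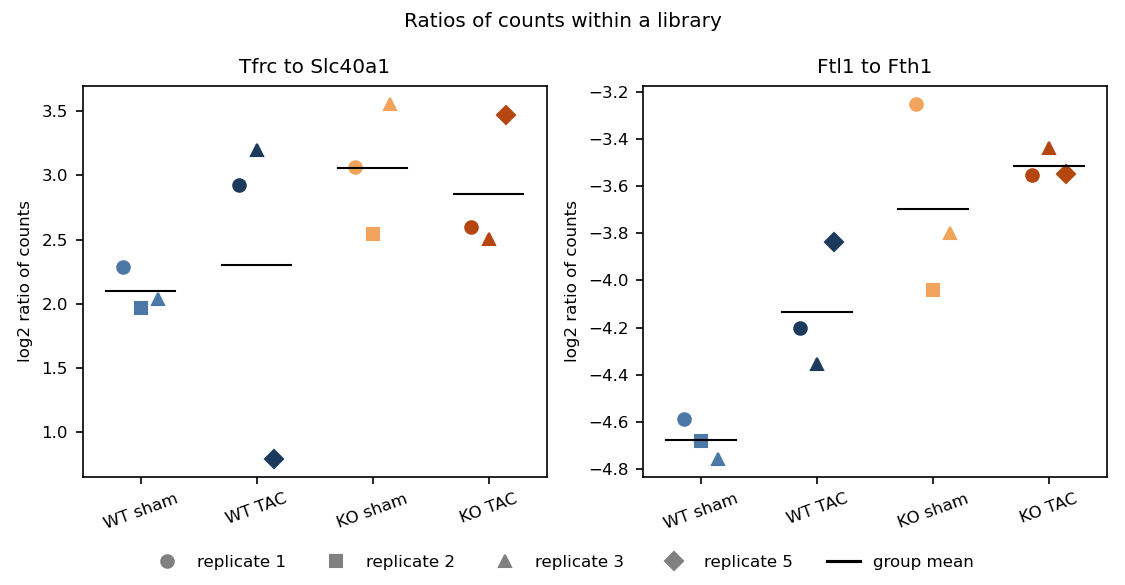
Log2 ratio of counts within each library, Tfrc to Slc40a1 (left) and Ftl1 to Fth1 (right); points are libraries, shaped by replicate number, and bars are group means. The Ftl1 to Fth1 ratio is lowest in the 3 WT sham libraries, and the Tfrc to Slc40a1 ratio of WT TAC replicate 5 lies at 0.79, below all others.

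Slc40a1 (ENSMUSG00000025993) encodes ferroportin, the known iron exporter of vertebrate cells. Its levels were 18.5, 18.5 and 15.5 CPM in WT sham and 7.52, 10.2 and 15.2 CPM in WT TAC. The KO libraries had 5.73, 17.1 and 12.9 CPM after sham and 4.96, 4.85 and 4.59 CPM after TAC. The KO TAC libraries were the lowest 3 of the 12 and lay close together, and KO sham replicate 1 was the next lowest. Slc40a1 fell in KO against WT after TAC (log2 fold change -1.19 ± 0.35, 2.28-fold lower, edgeR adjusted p = 0.0373). The call was lost without any 1 of the 3 WT sham libraries, without WT TAC replicate 3 or 5, or without any 1 of the 3 KO TAC libraries, with adjusted p from 0.0531 to 0.136 and log2 fold changes from -1.24 to -0.89. For TAC in WT the change was -0.67 ± 0.33 (adjusted p = 0.331), and for TAC in KO it was -1.32 ± 0.35 (adjusted p = 0.103). When KO sham replicate 1 was left out, Slc40a1 fell with TAC in KO (-1.65 ± 0.25, adjusted p = 0.000409) and was at -0.68 ± 0.21 in WT (adjusted p = 0.0697). The interaction was then -0.97 ± 0.33 (adjusted p = 0.0690).

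Cp (ENSMUSG00000003617) encodes ceruloplasmin, the copper oxidase that loads exported iron onto transferrin. Its levels were 86.6, 106 and 79.3 CPM in WT sham and 59.5, 101 and 91.5 CPM in WT TAC. They were 64.3, 64.1 and 62.2 CPM in KO sham and 55.03, 44.98 and 45.43 CPM in KO TAC. The KO TAC libraries were the lowest 3 of the 12, and the KO sham libraries lay below all WT libraries except WT TAC replicate 1. KO sham replicate 1 did not stand apart from its group in Cp. Cp fell in KO against WT after TAC (log2 fold change -0.79 ± 0.20, 1.73-fold lower, edgeR adjusted p = 0.0253). The call was lost without WT TAC replicate 3 or 5 or any 1 of the 3 KO TAC libraries, with adjusted p from 0.0676 to 0.101 and log2 fold changes from -0.90 to -0.64. Scaling by library totals without mitochondrial transcripts also lost it (-0.56 ± 0.19, adjusted p = 0.0527). KO against WT after sham was -0.51 ± 0.20 (adjusted p = 0.319).

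Hamp (ENSMUSG00000050440), the gene of hepcidin, is made mainly in liver, with a known minor source in the heart. Mouse has a related gene, Hamp2. The start regions of both are shown because the counts of the pair differ, with GGCGCC, a core of elements that bind SMAD proteins, and TTCTTGGAA, a STAT-type element, in capitals. Each line holds the 150 bases before the annotated start, 5′ to 3′ on the minus strand of mouse chromosome 7, from RefSeq on build GRCm38.p6, and 135 of 150 bases were identical.
Hamp, chr7:30944030-30944179: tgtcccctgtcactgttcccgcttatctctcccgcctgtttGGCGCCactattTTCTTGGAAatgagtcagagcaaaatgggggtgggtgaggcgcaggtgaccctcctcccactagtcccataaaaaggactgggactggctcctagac
Hamp2, chr7:30924182-30924331: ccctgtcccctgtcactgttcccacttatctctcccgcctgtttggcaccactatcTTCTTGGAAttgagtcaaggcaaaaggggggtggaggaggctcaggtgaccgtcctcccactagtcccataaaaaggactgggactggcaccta
TTCTTGGAA was found in both and GGCGCC in Hamp alone, searched on both strands with no overlap between the motifs. Among 32851 mouse promoter windows of 250 bases before the start, 9.59% held GGCGCC and 0.365% held TTCTTGGAA. Of the 10 genes, 5 had such a window (Hamp, Fth1, Ftl1, Tfrc and Cp), and beside Hamp the motif GGCGCC was in that of Tfrc. A match is only a run of letters.

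Hamp had 2, 22 and 3 counts in WT sham replicates 1, 2 and 3 and 1, 1 and 0 counts in WT TAC replicates 1, 3 and 5. It had 90, 37 and 21 counts in KO sham and 179, 43 and 103 counts in KO TAC, which are 12.3, 3.36 and 6.75 CPM. WT TAC lay below every other library, and the KO TAC libraries overlapped the KO sham group through replicate 1 of the latter. Hamp2 had at most 2 counts in any library. Hamp passed the filter on low counts through its KO libraries and WT sham replicate 2.

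Relative to library size, KO TAC held 219 times the Hamp counts of WT TAC, with an exact 95% interval of 60.1 to 1815 that covers counting error only. The ratio was 5.55 (3.66 to 8.70) for KO sham over WT sham, 3.11 (2.56 to 3.81) for KO TAC over KO sham, and 12.7 (3.19 to 110) for WT sham over WT TAC. Hamp rose in KO against WT after TAC (edgeR adjusted p = 0.0116), and the adjusted p was 0.0541 without WT TAC replicate 3. The fitted log2 fold change, 7.49 ± 1.21, depends on the prior count because WT TAC held 2 counts, and it is no bound. When KO sham replicate 1 was left out, Hamp rose with TAC in KO (log2 fold change 2.56 ± 0.64, adjusted p = 0.00598), the ratio of KO TAC over KO sham was 6.02 (4.54 to 8.10) and the ratio of KO sham over WT sham was 2.87 (1.79 to 4.71).

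Atrial and adipocyte markers moved with Hamp across the libraries. The 5 atrial muscle markers (Myl7, Myl4, Sln, Bmp10 and Dkk3) summed to 28.2, 985 and 78.9 CPM in WT sham replicates 1, 2 and 3 and to 6.49, 11.6 and 8.49 CPM in WT TAC. They summed to 1915, 242 and 175 CPM in KO sham and to 1609, 358 and 1027 CPM in KO TAC. WT sham replicate 2, KO sham replicate 1 and KO TAC replicate 1, the highest of their groups for Hamp, were also the highest for these markers. WT sham replicate 2, with 985 CPM of atrial markers, had 0.999 CPM of Hamp, and KO sham replicate 3, with 175 CPM, had 0.984 CPM. All 5 atrial markers rose in KO against WT after TAC. The 6 adipocyte markers summed to 0.246 to 1.13 CPM in WT TAC and to 18.4 to 23.9 CPM in KO TAC, and the 4 of them tested rose. All 6 were detected, with 6 counts of Ucp1 over the 12 libraries. The 6 mesothelial markers summed to 4.84 to 7.67 CPM in WT TAC and to 27.4 to 39.9 CPM in KO TAC. The part of these tissues in the Hamp result was not tested. Of the 8 hepatocyte markers, Ahsg had 886 counts over all 12 libraries, Apoa2 104, Ttr 47, Alb 43, Apoa1 8, Fgb 5, Serpina1a 3 and Apob 1. Of the 2 tested, Ahsg and Apoa2, Ahsg rose in this comparison, from a mean of 2.36 CPM in WT TAC to 9.13 CPM in KO TAC. The summed level of 3.01 to 4.13 CPM in WT TAC and 6.88 to 11.9 CPM in KO TAC was mostly Ahsg, and its part in the Hamp result was not tested.

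**Figure D4:**
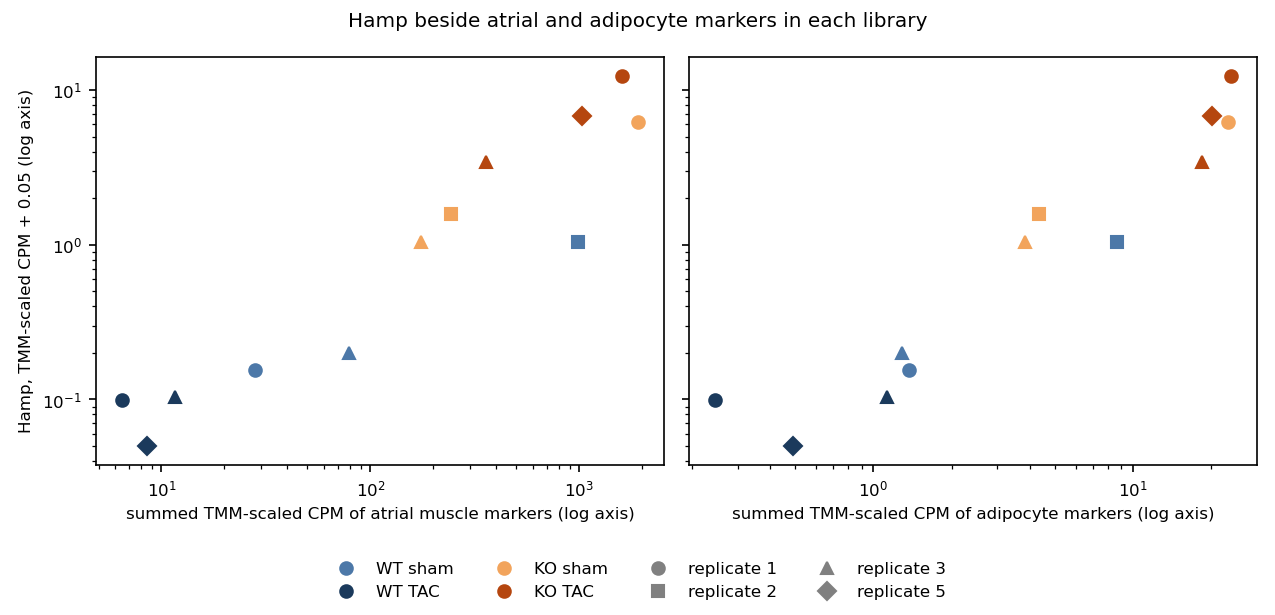
Hamp level plus 0.05 against the summed level of atrial muscle markers (left) and adipocyte markers (right), in scaled CPM on log axes; points are libraries, coloured by group and shaped by replicate number. The WT TAC libraries lie at the lower left, and the KO TAC libraries with KO sham replicate 1 at the upper right.

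Tfrc (ENSMUSG00000022797) encodes the transferrin receptor. Its levels were 90.2, 72.3 and 63.7 CPM in WT sham and 57.3, 93.7 and 26.2 CPM in WT TAC. They were 48.0, 99.8 and 151.9 CPM in KO sham and 30.1, 27.5 and 50.8 CPM in KO TAC. Tfrc varied widely within groups, and no neighbouring groups in the order of means (KO sham, WT sham, WT TAC, KO TAC) were apart. The 5 lowest libraries were the KO TAC group, WT TAC replicate 5 and KO sham replicate 1. TAC in WT gave a log2 fold change of -0.35 ± 0.46 (edgeR adjusted p = 0.707), and TAC in KO gave -1.47 ± 0.47 (adjusted p = 0.103). Leaving out KO sham replicate 1, Tfrc fell with TAC in KO (-1.80 ± 0.42, adjusted p = 0.00515). KO against WT after TAC was -0.71 ± 0.46 (adjusted p = 0.261). Red cell precursors also carry much transferrin receptor, and the summed level of 7 erythroid markers was 112 to 216 CPM in WT TAC, 105 to 264 CPM in KO sham and 123 to 265 CPM in KO TAC. Its part in the Tfrc levels was not tested.

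Tfrc and Slc40a1 carry hairpins at opposite ends of their transcripts, and the ratio of the pair was taken within each library. The log2 ratio of Tfrc to Slc40a1 was 2.10 ± 0.17 in WT sham, 2.31 ± 1.32 in WT TAC, 3.06 ± 0.51 in KO sham and 2.86 ± 0.53 in KO TAC (SD, n = 3 each). In KO both genes were low in the TAC libraries, and the ratio overlapped the sham group. The groups did not overlap for KO against WT after sham, which differed by 0.96 with an exact permutation p of 0.1, the smallest possible (adjusted p = 0.2). For the other 3 comparisons the exact permutation p was 0.6 to 1. WT TAC replicate 5, at 0.79, was the lowest of the 12 libraries.

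Trf (ENSMUSG00000032554) encodes transferrin, the plasma iron carrier. Its levels were 27.5, 29.0 and 26.1 CPM in WT sham and 21.8, 14.7 and 25.6 CPM in WT TAC. They were 38.3, 33.6 and 39.2 CPM in KO sham and 38.9, 38.9 and 32.5 CPM in KO TAC. Every KO library was above every WT library after either surgery, and KO sham replicate 1 lay within its group. Trf rose in KO against WT after TAC (log2 fold change 0.83 ± 0.18, 1.78-fold higher, edgeR adjusted p = 0.0206). The call was lost without WT TAC replicate 3, the lowest library (0.63, adjusted p = 0.0685), and without KO TAC replicate 1 or 3 (0.78 and 0.79, adjusted p = 0.0692 and 0.0845). After sham the difference was 0.43 ± 0.18 (adjusted p = 0.343). The interaction was 0.40 ± 0.26 (adjusted p = 0.637). Trf is also made by liver and by glia. After TAC the 5 Schwann cell markers summed to 8.82 to 15.5 CPM in WT and 24.0 to 30.5 CPM in KO, and their part in the Trf result was not tested. After sham they summed to 13.9 to 17.97 CPM in WT and to 26.1, 12.8 and 13.8 CPM in KO replicates 1, 2 and 3.

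Slc11a2 (ENSMUSG00000023030), also called DMT1, moves ferrous iron out of the endosome after transferrin uptake. Its levels were 25.1, 25.4 and 22.1 CPM in WT sham and 15.4, 24.6 and 17.9 CPM in WT TAC. They were 14.6, 22.0 and 20.9 CPM in KO sham and 12.8, 13.5 and 17.2 CPM in KO TAC. From high to low the means stood in the order WT sham, WT TAC, KO sham, then KO TAC, and every neighbouring pair overlapped. No comparison with all libraries passed, with log2 fold changes from -0.41 to -0.33 in the 4 comparisons between groups (edgeR adjusted p from 0.155 to 0.455). It fell with TAC in KO once KO sham replicate 1 was left out (-0.57 ± 0.19, adjusted p = 0.0272).

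The calls of the comparison between the genotypes after TAC rested on few libraries, for these genes as for all genes. Left out in turn, WT TAC replicate 3 left 0 of the 10 genes (85 of 16250 genes tested), WT TAC replicate 5 left 2 (166 of 16210), KO TAC replicate 1 left 1 (58 of 16264), KO TAC replicate 3 left 1 (43 of 16216) and KO TAC replicate 5 left 2 (437 of 16204). Without WT sham replicate 1 or 2 it was 3, without KO sham replicate 1 it was 7, and without the remaining 4 libraries it was 4 to 6. Hamp passed in 11 of these 12 fits, Trf in 9, Cp in 7, Slc48a1 in 5 and Slc40a1 in 4. The signs of these 5 genes were the same in all 12.

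The wider haem and iron pathways were described with 63 further genes in 6 lists, of which 57 passed the filter on low counts. In KO against WT after TAC, 8 of the 57 rose and 20 fell, the deleted gene Cd163 among the latter, where 8.63% of all genes rose and 11.7% fell. The 8 include Hpx. It passed the filter on low counts only through the group where it was high, so its call supports nothing. The median log2 fold change over the 57 was -0.37. With other scalings the split was 12 and 14 (library totals without the mitochondrial genome) or 2 and 25 (library totals). Without any 1 of the 3 KO TAC libraries, or without WT TAC replicate 3, the 1 gene of the 57 still called was Cd163 itself, and without WT TAC replicate 5 there were 2. Cd163 passed in all 12 fits with a library left out, and the list counts below are to be read with this. None of the 57 was called in the other comparisons with all libraries (edgeR).

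Of 11 haem synthesis genes, 3 fell and none rose, a count of 3 called that lies near the 20.4% of all genes called in this comparison. Alas1, the rate-limiting synthase of tissues outside the red cell line, was at 122 ± 34.9 CPM in WT TAC and 34.3 ± 2.64 CPM in KO TAC (SD, n = 3; log2 fold change -1.83 ± 0.43, edgeR adjusted p = 0.0236). KO sham replicate 1, at 36.2 CPM, stood with the KO TAC libraries and the other KO sham libraries with WT. Cpox, coproporphyrinogen oxidase, fell by 1.36 and Uros, uroporphyrinogen synthase, by 0.77. Fech, the enzyme that puts iron into haem, was at -1.01 ± 0.34 (adjusted p = 0.0534). Alas2, the synthase of the red cell line, was at -0.37 ± 0.39.

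Of 10 genes of haem and haemoglobin capture, export and breakdown, 3 rose and 3 fell, Cd163 among the latter. Of all genes, 8.63% rose and 11.7% fell. Haptoglobin (Hp), the partner that Cd163 binds, rose from 0.723 ± 0.401 to 5.39 ± 1.37 CPM (log2 fold change 2.89 ± 0.85, edgeR adjusted p = 0.0371). The haem exporter Flvcr1 rose by 0.83 on the log2 scale. The third is the haem carrier haemopexin (Hpx), with 12, 9 and 13 counts in KO TAC and at most 7 elsewhere, which passed the filter on low counts only through the group where it was high, so its call supports nothing. The constitutive haem oxygenase Hmox2 fell from 34.3 ± 8.92 to 12.1 ± 0.844 CPM (-1.50 ± 0.33, adjusted p = 0.0209), and Flvcr2 fell by 1.31. Cd163, the deleted gene, is the last of the 6. Hp was at 6.62 CPM in KO sham replicate 1 and 3.09 CPM in WT sham replicate 2, the libraries of their groups with the most atrial markers, whose part was not tested.

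**Figure D5:**
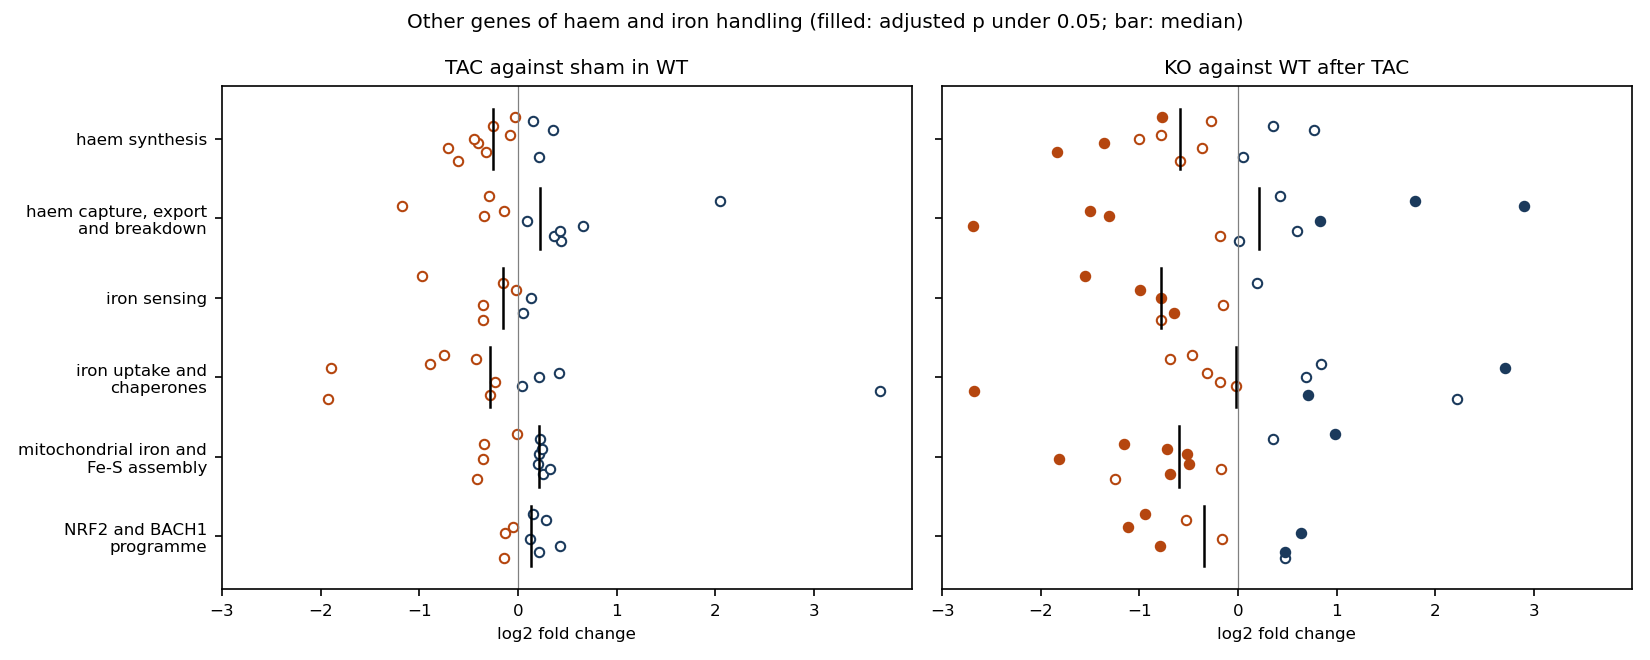
Log2 fold changes of the other genes of haem and iron handling, by list, for TAC against sham in WT (left) and KO against WT after TAC (right); each point is a gene, filled where the adjusted p was under 0.05, and bars are list medians. No point is filled on the left, and for KO against WT after TAC 8 filled points lie right of 0 and 20 left of it. The 8 include Hpx, which passed the filter on low counts only through the group where it was high.

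Of 7 tested genes of iron sensing and systemic control, 4 fell and none rose, where 11.7% of all genes fell and 8.63% rose. Ncoa4, the receptor that takes ferritin to the lysosome, was at 14.3 ± 7.11 CPM in WT TAC and 4.85 ± 0.344 CPM in KO TAC (log2 fold change -1.55 ± 0.48, edgeR adjusted p = 0.0437). Hjv, a co-receptor of bone morphogenetic proteins abundant in muscle, fell from 183 ± 27.0 to 91.9 ± 10.9 CPM (-0.99 ± 0.25, adjusted p = 0.0256), Hfe fell by 0.78 and Bmp6 by 0.65. In liver Hjv, Hfe and Bmp6 are known as activators of Hamp, and their part in the Hamp result was not tested. The iron regulatory proteins that bind the hairpins were at -0.79 ± 0.29 for Aco1 (adjusted p = 0.0715) and 0.19 ± 0.13 for Ireb2 (adjusted p = 0.281).

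Of 11 tested genes of iron uptake, reduction and chaperones, 2 rose and 1 fell, again near the share of all genes. The metal importer Slc39a8 rose from 0.571 ± 0.393 to 3.72 ± 1.16 CPM (log2 fold change 2.71 ± 0.81, edgeR adjusted p = 0.0395) and Heph, a membrane relative of ceruloplasmin, rose by 0.71. Lcn2, a carrier of iron-binding siderophores made in inflammation, fell (-2.68 ± 0.52, adjusted p = 0.0170). Lcn2 was at 0.917 ± 0.354 CPM in WT sham, 11.7 ± 9.53 in WT TAC, 1.01 ± 0.0959 in KO sham and 1.83 ± 0.640 in KO TAC. It rose with TAC in WT in the fit without KO sham replicate 1 (3.68 ± 0.54, adjusted p = 0.00501).

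Of 10 tested genes of mitochondrial iron and iron-sulphur cluster assembly, 6 fell and 1 rose, where 11.7% of all genes fell and 8.63% rose. Isca1, an assembly factor, was at 139 ± 57.5 CPM in WT TAC and 39.3 ± 1.47 CPM in KO TAC (log2 fold change -1.82 ± 0.51, edgeR adjusted p = 0.0338). The sulphur donor Nfs1 fell by 1.15, the scaffold Iscu by 0.72, Cisd1 by 0.69, Isca2 by 0.51 and Glrx5 by 0.50. Slc25a37, the mitochondrial iron importer mitoferrin, rose from 34.1 ± 11.4 to 67.4 ± 8.93 CPM (0.98 ± 0.28, adjusted p = 0.0362). The share of mitochondrial genome transcripts was higher in KO TAC, and its part was not tested.

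Of 8 tested genes of the NRF2 and BACH1 programme, which controls Hmox1 among its targets, 2 rose and 3 fell. Of all genes, 8.63% rose and 11.7% fell. Nfe2l2, the gene of NRF2, rose from 58.0 ± 9.94 to 90.5 ± 10.1 CPM (log2 fold change 0.64 ± 0.15, edgeR adjusted p = 0.0236), and Gclc, a subunit of the glutathione-making ligase, rose by 0.47. The quinone reductase Nqo1 fell by 1.11, thioredoxin reductase Txnrd1 by 0.95 and the other ligase subunit Gclm by 0.79. Bach1, the repressor of Hmox1 that haem inactivates, was at 0.47 ± 0.20 (adjusted p = 0.102). The known targets of NRF2 in the list did not share a direction.

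In the fit without KO sham replicate 1, 14 of the 57 pathway genes rose with TAC in KO, Hpx counted among them, and 19 fell. Of all genes 22.4% rose and 25.2% fell. The log2 fold change was -2.38 for Ncoa4, -2.34 for Isca1, -2.26 for Alas1 and -1.66 for Hmox2, and it was 3.12 for Cybrd1 and 2.58 for Hp, with Hpx left aside for its filter. Cybrd1 had 2 and 3 counts in KO sham replicates 2 and 3 and 15, 12 and 16 in KO TAC. The library left out had 29 counts, 1.98 CPM, above the KO TAC libraries (at most 1.05 CPM), so this rise depends on leaving it out. Slc39a8 was also higher in that library (5.39 CPM) than in KO TAC (at most 4.96 CPM). Among the others that fell were Cpox, Nfs1, Flvcr2, Steap4, Steap3, Aco1, Fech, Abcb10, Hjv, Txnrd1, Uros, Pcbp2 and Fbxl5. Slc39a8, Ppox, Blvrb, Slc25a37, Slc22a17, Slc25a28, Flvcr1, Abcg2, Gclc, Alad and Slc25a38 also rose. In KO against WT after TAC the same fit called 39, where 40.7% of all genes were called, the 28 above and 11 more, among them Steap3, Aco1, Steap4 and Fech lower and Ppox, Cybrd1, Lrp1, Slc22a17 and Slc25a38 higher. In WT the same fit called 3, Lcn2 higher and Slc39a8 and Steap4 lower with TAC, a count near the 6.53% of all genes called there. In the interaction it called 4 higher and 11 lower, where 4.66% of all genes were higher and 7.45% lower. Among the pathway genes called lower were Alas1 at -1.93 ± 0.26 (edgeR adjusted p = 0.00255), Hmox2 at -1.52 ± 0.25 (adjusted p = 0.00541) and Isca1 at -1.98 ± 0.37 (adjusted p = 0.00904). None of the pathway genes passed the interaction with all libraries.

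The genes of the most similar profile over the 12 libraries were found by the root-mean-square difference of log2 levels, each centred on its own mean, among 12324 genes. Capzb lay nearest to Slc48a1 (difference 0.0831), Rab5b to Slc40a1 (0.133) and Cox14 to Fth1 (0.0620). Anxa2 lay nearest to Ftl1 (0.126), Dennd4a to Trf (0.149), Dad1 to Cp (0.145) and Rnf214 to Slc11a2 (0.0876). Cfd, an adipocyte marker, lay nearest to Hamp (0.488), followed by Cyp2e1 (0.489) and Car3 (0.570). Ccdc69 lay nearest to Tfrc (0.365), whose own spread was 0.757. These are descriptions over libraries that share groups.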

How the data were processed

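The authors deposited 1 table of raw, whole-number read counts by gene for the 12 libraries (150 bp paired reads), whose header names the samples. Alignment used HISAT2, per the submitters' processing notes. Its version, the build and annotation, the counting program and whether strand was used are not stated in the labels. Of 55357 Ensembl identifiers, 52081 matched a symbol in GENCODE M21 or RefSeq and 3276 did not. The 10 genes, the pathway and marker lists and the tests were chosen with earlier results of these data known.

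Counts were fitted in edgeR 4.0.16 (R 4.3.3) by a robust quasi-likelihood model with 1 coefficient per group (8 residual degrees of freedom), after filterByExpr by group and TMM scaling, with Benjamini-Hochberg adjustment over 15804 genes at 0.05. The procedure was run on simulated counts with known changes in KO TAC alone and no outlying library like KO sham replicate 1. That run cannot tell how far the calls here hold. The labels do not say that libraries came from separate animals, so the p-values reflect only the spread among these samples, which may be technical. Named genes were all 10, Cd163, called pathway genes or the 2 of each list with the smallest p, and the 3 nearest profiles (log2 of CPM plus 0.5, mean of at least 1 CPM). Some genes that this rule takes are not reported here. Alternatives were DESeq2 1.42.0, limma-voom (limma 3.58.1) with sample weights, DESeq2 size factors in edgeR, library totals with and without the mitochondrial genome, no filter, a filter at a mean of 1 CPM, a replicate block, compared groups only and each library left out. A fit without the pair of WT TAC replicate 1 and KO sham replicate 1 was chosen after seeing the data. The fit without KO sham replicate 1 alone was also singled out after seeing the data. Intervals of count ratios are exact and cover counting error only.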

Additional observations from a re-analysis of the deposited data

How the results depend on the processing

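In KO against WT after TAC, 5 of the 10 genes were called, 2 higher and 3 lower. The count was 3 with library totals without the mitochondrial genome (2 higher, 1 lower), 8 with limma-voom (48.4% of all genes called), and 8 with WT TAC replicate 1 and KO sham replicate 1 both left out, a pair chosen after seeing the data (53.8%). It was 0 to 7 with each library left out. For TAC in WT the count of 0 became 1 with DESeq2, 2 with limma-voom and 2 without that pair of libraries (6.18% of all genes), and 0 to 1 with each library left out. For TAC in KO it became 2 with DESeq2, 7 with limma-voom and 7 without the pair (55.5% of all genes), and 0 to 5 with each library left out. For KO against WT after sham it became 1 with DESeq2 and 3 with limma-voom. For the interaction it became 3 with limma-voom and 4 without the pair, close to the 36.1% of all genes, and 0 to 2 with each library left out. All other alternatives were within 1.5 times the count or kept it at 0. Signs changed for values near 0. For TAC in WT, Cp at -0.11 became 0.019 with library totals, 0.012 with limma-voom and 0.10 without the pair, and over left-out libraries it ran from -0.27 to 0.089, Slc48a1 from -0.018 to 0.19 and Tfrc from -0.86 to 0.00051. For TAC in KO, Hmox1 became 0.036 without mitochondrial counts in the totals (-0.13 to 0.082 over left-out libraries), and Fth1 became -0.12 with library totals and -0.0032 without the pair (-0.012 to 0.13). Trf for TAC in KO became 0.010 with DESeq2 size factors, 0.048 without mitochondrial counts, 0.0034 with DESeq2, 0.021 with the filter at 1 CPM and 0.015 without the pair (-0.059 to 0.095). For KO against WT after sham, Slc48a1 at -0.02 became 0.12 with library totals, 0.12 without mitochondrial counts, 0.18 with limma-voom and 0.21 without the pair (-0.15 to 0.19), and Tfrc ran from -0.029 to 0.74. Ftl1 in KO against WT after TAC became -0.0014 with library totals. The interaction of Slc11a2 at -0.08 became 0.00012 without mitochondrial counts (-0.24 to 0.13). The cause was not tested. Library totals moved the median of all genes by 0.17 for TAC in WT, -0.19 for TAC in KO, 0.12 after sham, -0.24 after TAC and -0.40 in the interaction, and totals without mitochondrial counts by 0.17 after sham and 0.21 after TAC.

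Same-numbered libraries did not deviate together, with correlations from -0.25 to 0.12. Between the genotypes, 1 of 6 libraries after sham and 0 of 6 after TAC were closest to their own number. No pairing by number was seen, and 2 or 3 such pairs per comparison are too few to tell whether one exists. With a replicate block the count was 0 for TAC in WT, 0 for TAC in KO, 0 for KO against WT after sham, 5 for KO against WT after TAC and 0 for the interaction. Hamp, with 2 counts in WT TAC, is limited by depth.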
